A study of Mus musculus with 4 samples.

Results

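RAS GTPase-activating proteins are the enzymes that switch RAS off, and the 9 genes described here (Nf1, Rasa1, Rasa2, Rasa3, Rasa4, Rasal1, Rasal2, Rasal3 and Dab2ip) were taken by gene symbol from the 24421 genes of the deposited tables. All 9 symbols were present, and 8 had values high enough to be tested. RNA had been sequenced from mouse brain cells for work on the ERK pathway in a model of Noonan syndrome, one of the disorders caused by an overactive RAS pathway. By their labels, 2 libraries are excitatory, from αCaMKII-positive cells (the kinase marks glutamatergic neurons of the forebrain), and 2 are inhibitory, from vGAT-positive cells (the transporter loads GABA into vesicles). The colonies carried αCaMKII-Cre or vGAT-IRES-Cre, were bred to wild-type C57Bl/6J mice, and males of 3 to 5 months were used, so cells were marked by where each Cre driver is or was active. The labels name neither the fluorescent reporter, nor the brain region, nor any Noonan mutation in these libraries. Each library was a pool of 100 fluorescent cells picked by hand. Since the labels do not say that the libraries of a label came from separate animals, the p-values speak only to library-to-library spread, part or all of which may be technical.

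RAS proteins cycle between an active form bound to GTP and an inactive form bound to GDP. Exchange factors such as Sos1 load GTP and start signalling through RAF, MEK and ERK, whereas GTPase-activating proteins speed up the hydrolysis of GTP and end it. Neurons hold several of these brakes at once: neurofibromin (Nf1), whose loss causes neurofibromatosis, p120 RasGAP (Rasa1), the GAP1 family (Rasa2, Rasa3, Rasa4 and Rasal1), whose members bind membrane lipids or respond to calcium, and the family of Dab2ip, Rasal2 and Rasal3.

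Marker genes checked the labels only in part. Camk2a, the gene of αCaMKII, was higher in the excitatory libraries (a difference of 0.87 on the log2 scale, limma adjusted p = 3.18e-04), but the vGAT gene Slc32a1 had 0 throughout and Gad1, a GABA-synthesizing enzyme, passed only after scaling (-0.48, limma adjusted p = 0.0649 in the deposited values, and -1.02, adjusted p = 0.00768, scaled). Of 8 glutamatergic markers 4 were higher in excitatory and 2 in inhibitory libraries, and of 10 tested GABAergic markers also 4 and 2 (4 and 3, and 2 and 3, after scaling). These counts include Slc17a6 on the excitatory side and Emx1 and Dlx2 on the inhibitory side. Each of them passed the filter on low values (a value of 1 in 2 or more libraries) only through the label where it was high. Excitatory and inhibitory below are therefore names of libraries as labelled. Values are on the scale log2(normalized reads + 1), and each difference is excitatory minus inhibitory on that scale. Estimated depth was 61.8 to 74.2 M reads per library. Over 13619 tested genes the median difference was 0.52, a 1.43-fold shift that median-of-ratios scaling, which sets the typical gene equal between libraries, brought to -0.01; values after that step are called scaled. The myelin gene Mbp had the same value, 21.331, in every library, so a deposited difference is also a difference relative to Mbp. In bulk samples such as these, fewer cells of a type and less RNA per cell cannot be told apart.

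The family was split between the labels. Rasa1, Rasal1, Rasal2 and Dab2ip were higher in the excitatory libraries, while Nf1, Rasa3 and Rasal3 were higher in the inhibitory libraries. Rasa2 did not pass (limma adjusted p threshold 0.05), and Rasa4 was listed at 0 in all 4 libraries. The counts of 4 and 3 among 8 tested genes were the same after scaling. They stand beside a background in which 71.8% of all tested genes were called, 45.0% as higher in the excitatory and 26.8% as higher in the inhibitory libraries (65.9%, 32.4% and 33.5% after scaling), so being called is not particular to these genes. The number of all genes called was 9777, and it was 6157 or 6103 when excitatory replicate 1 or 2 was left out, and 6449 or 6551 when inhibitory replicate 1 or 2 was left out. Rasal3 passed the filter on low values only through the libraries where it was high. Of the 7 members above 0 in every library, 4 and 2 were called, beside 66.0% of the 10543 tested genes above 0 in every library. The labels did not overlap for any of these 7, which was also true of 84.2% of those genes (86.4% of all tested genes). The median size of the difference, whatever its sign, was 2.48 among these 7 and 1.13 among those genes (1.94 and 1.01 after scaling). Without excitatory replicate 1, only Rasa1 and Dab2ip of the 4 members higher in the excitatory libraries passed. Markers of glia and vessels moved with the labels too. Of 8 astrocyte markers 6 were higher in excitatory and 0 in inhibitory libraries (3 and 2 after scaling; summed level on the log2 scale 20.98 and 20.96 against 20.27 and 20.18), and of 7 oligodendrocyte markers 4 and 0 (4 and 2 after scaling; summed level without Mbp, which makes up most of the sum, 18.35 and 18.09 against 16.64 and 16.63). Cldn11, among the called oligodendrocyte markers, needed the excitatory libraries to pass the filter on low values, so its call is not given as support. All 3 tested of 7 endothelial and mural markers were higher in the excitatory libraries (summed level 10.16 and 10.30 against 1.83 and 3.25). Flt1 and Pdgfrb passed the filter only through those libraries, and Rgs5 (9.8 and 10.0 against 1.8 and 1.8) passed it in both labels. Flt1 lost its call with inhibitory replicate 1 or 2 left out, with the replicate block (limma adjusted p = 0.0591) or with 8 added before the log (0.201). Pecam1 was above 0 only in inhibitory replicate 2 (2.82) and was not tested, and Cldn5, Cdh5 and Tek were listed at 0 throughout. Of 4 markers of oligodendrocyte precursors 3 were tested, and 2 were higher in the inhibitory libraries (summed level, linear scale, 4095 and 5118 normalized reads against 2982 and 2702). These were Pdgfra, listed at 0 in the excitatory pair, and Olig2. Pdgfra passed the filter only through the inhibitory libraries, so its call is not given as support, and Olig2 passed it in both labels. The part of glia and vessel cells in the members' differences was not tested.

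**Figure D1:**
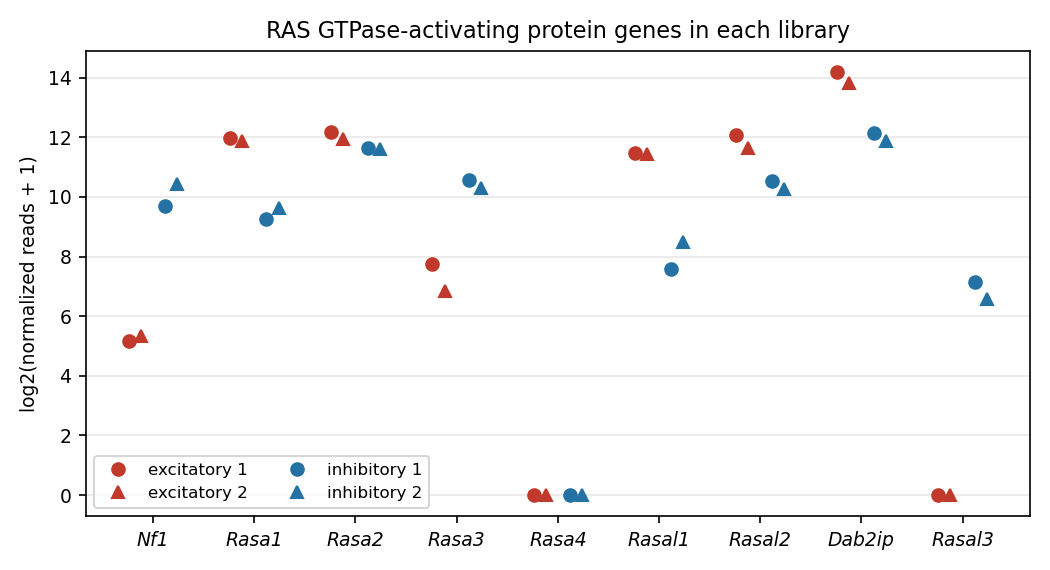
Deposited value, log2(normalized reads + 1), of the 9 genes in each library; red marks excitatory and blue inhibitory libraries, circles replicate 1 and triangles replicate 2. Nf1, Rasa3 and Rasal3 sit higher in blue, Rasa1, Rasal1, Rasal2 and Dab2ip higher in red, Rasa2 lies close together and Rasa4 is at 0 throughout.

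The DNA just upstream of the start site is shown for 2 members from each direction, since members that share a direction could be compared for shared promoter letters. RefSeq's table for build GRCm38.p6, the build of mm10, held 8 of the 9 genes, all but Rasal1. Of the 250 bases before the start, the part outside exons of coding genes is printed, read 5′ to 3′ on the gene's strand. Capitals mark GGGCGG (the GC box bound by SP1-type factors), CCAAT (the CCAAT box) and CACGTG (an E-box), searched on both strands, so that CCGCCC and ATTGG also count; no marked matches overlapped in these 4 windows.
Rasa1, chr13:85289487-85289736, minus strand: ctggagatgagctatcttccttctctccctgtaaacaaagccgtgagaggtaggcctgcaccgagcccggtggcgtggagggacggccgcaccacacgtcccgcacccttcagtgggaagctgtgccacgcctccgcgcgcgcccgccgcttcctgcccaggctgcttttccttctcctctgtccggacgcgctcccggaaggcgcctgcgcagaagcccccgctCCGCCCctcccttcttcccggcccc
Rasal2, chr1:157412596-157412845, minus strand: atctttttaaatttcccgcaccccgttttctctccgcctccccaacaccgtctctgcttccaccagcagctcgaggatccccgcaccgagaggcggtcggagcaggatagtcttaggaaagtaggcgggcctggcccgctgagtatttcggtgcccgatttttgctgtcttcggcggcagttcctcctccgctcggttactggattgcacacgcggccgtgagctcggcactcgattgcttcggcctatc
Rasa3, chr8:13677604-13677837, minus strand: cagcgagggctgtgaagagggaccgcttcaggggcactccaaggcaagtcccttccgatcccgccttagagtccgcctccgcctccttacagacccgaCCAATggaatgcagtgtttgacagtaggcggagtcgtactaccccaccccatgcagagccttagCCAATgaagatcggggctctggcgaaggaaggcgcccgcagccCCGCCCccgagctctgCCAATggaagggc
Rasal3, chr17:32403584-32403831, minus strand: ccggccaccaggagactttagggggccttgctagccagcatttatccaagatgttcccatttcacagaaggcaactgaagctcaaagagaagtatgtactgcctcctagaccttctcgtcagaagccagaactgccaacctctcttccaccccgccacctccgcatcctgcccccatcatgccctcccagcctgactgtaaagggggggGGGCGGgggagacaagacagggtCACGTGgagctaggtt
A GC box was found in the windows of Rasa1, Rasa3 and Rasal3 and in 32.7% of 32851 promoter windows of the same length. The CCAAT box occurred 3 times upstream of Rasa3 and in 33.8% of all windows, and the E-box once upstream of Rasal3 and in 6.02% of all windows. The cyclic AMP response element TGACGTCA (1.55% of windows) and the TATA box TATAAA (12.4%) were in none of the 4. Rasal3 had the fewest CG dinucleotides of the 4, with 6 in 250 bases, the median of all promoter windows, against 24 for Rasa1, 23 for Rasal2 and 18 for Rasa3. The windows of Rasal2 and Rasal3 lie within the span of transcripts annotated on the other strand, 2810025M15Rik and CT485616.1. Among these 4 members, no searched motif was present in both of one direction and missing from both of the other. The windows of Nf1 and Dab2ip were left out of this comparison.

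Nf1, which encodes neurofibromin, was the brake with the largest difference among members detected in all 4 libraries. Its values were 5.18 and 5.34 in the excitatory and 9.68 and 10.43 in the inhibitory libraries. Both inhibitory libraries lay far above both excitatory libraries, and the excitatory values rested on few reads, about 27 and 32 against about 1137 and 1575. The means were 5.26 ± 0.12 (SD, n = 2) and 10.05 ± 0.53, a difference of -4.79 (SE 0.36, limma adjusted p = 4.05e-04) or 27.7-fold. Scaling moved it to 40.1-fold. Of all tested genes, 23.7% differed by at least as much. Nf1 spans positions 79339693 to 79581612 of chromosome 11 in mm10. Omg, Evi2a and Evi2b, 3 small coding genes with deposited values, lie within its introns on the opposite strand, sharing no exon base with it. A further coding gene annotated there, Evi2, had no deposited value. Omg, Evi2a and Evi2b did not follow Nf1 as a group. Omg, a myelin glycoprotein gene, had 12.28 and 12.49 in the excitatory and 12.19 and 12.16 in the inhibitory libraries (difference 0.21, limma adjusted p = 0.235). Evi2a was higher in the excitatory libraries in the deposited values (0.90, adjusted p = 0.00948) but not after scaling (0.36, adjusted p = 0.106) nor when any single library was left out (0.0600 to 0.144). Evi2b had 0 and 2.89 against 8.59 and 8.31 (-7.00), the direction of Nf1, a call lost without inhibitory replicate 1 or inhibitory replicate 2. It needed the inhibitory libraries to pass the filter on low values, so its p is not given as support.

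Rasa1 encodes p120 RasGAP, which docks on activated receptor tyrosine kinases through its SH2 domains, and the first sequence above, with 68.8% G and C, lies upstream of it. The gene spans positions 85214780 to 85289130 of chromosome 13. It had 11.97 and 11.86 in the excitatory and 9.25 and 9.61 in the inhibitory libraries. Every excitatory value exceeded every inhibitory value by more than 2 units, and replicates within a label differed by less than 0.4. The difference was 2.48 (SE 0.21, limma adjusted p = 5.38e-04), 5.60-fold in the deposited values and 3.85-fold after scaling. The 3′ end of Rasa1 overlaps that of Ccnh, a cyclin gene on the other strand, by 12 exon bases (0.164% of the Rasa1 exons), and Ccnh was also higher in the excitatory libraries (1.76, adjusted p = 6.54e-04). The part of these shared bases in the result was not tested. The balance of these 2 brakes within a library, which does not depend on how libraries were scaled, differed widely. The log2 ratio of Nf1 to Rasa1 per kb of exon was -7.94 and -7.67 in the excitatory and -0.69 and -0.30 in the inhibitory libraries, so Rasa1 was ahead everywhere, by far less in the inhibitory libraries. With coding transcript lengths it was also ahead, and with no division by length Nf1 was ahead in the inhibitory libraries (0.43 and 0.81). An exact permutation test over 4 libraries gave p = 0.333 (two-sided), the smallest value that 2 against 2 allows.

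**Figure D2:**
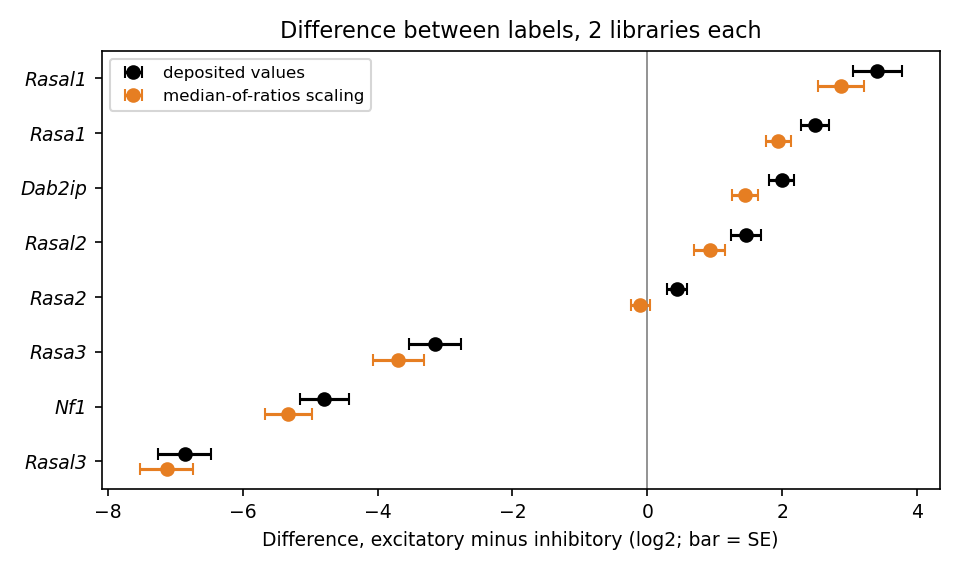
Difference between the labels (excitatory minus inhibitory, log2) for the 8 tested genes, with bars of 1 SE from limma; black points are deposited values and orange points values after median-of-ratios scaling. All points of a gene lie on one side of 0 except those of Rasa2, at 0.44 and -0.10.

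The GAP1 family held one member in each direction and one that did not pass. Rasa2, a broadly expressed member with C2 domains and a pleckstrin homology domain (chromosome 9, 96539300 to 96631617), had 12.19 and 11.96 in the excitatory and 11.65 and 11.61 in the inhibitory libraries. All 4 values lay within 0.6 units. The difference of 0.44 (SE 0.15, limma adjusted p = 0.0542) became -0.10 after scaling (SE 0.15, adjusted p = 0.577), so its sign depends on the scaling. Rasa3, which also acts on RAP1 and R-RAS and binds inositol phosphates (chromosome 8, 13566948 to 13677603), had 7.74 and 6.84 against 10.58 and 10.30. Its inhibitory libraries were close together and both higher, while its excitatory libraries were 0.9 apart. The difference was -3.15 (SE 0.38, limma adjusted p = 0.00175), 8.89-fold, or 12.9-fold after scaling. The call did not hold with inhibitory replicate 1 left out (adjusted p = 0.0821), nor with inhibitory replicate 2 left out (0.0727). Per kb of exon Rasa2 was ahead of Rasa3 in the excitatory libraries, with log2 ratios of 2.82 and 3.49, and behind it in the inhibitory libraries, with -0.57 and -0.32. With coding transcript lengths Rasa2 was ahead in all 4, by 4.05 and 4.73 against 0.67 and 0.91, so the shift of 3.59 between the labels does not depend on length while the change of place does (exact permutation p = 0.333).

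Rasal1, a member that moves to the membrane when calcium oscillates (chromosome 5, 120648812 to 120679597), ran opposite to Rasa3. Its values were 11.47 and 11.44 in the excitatory and 7.58 and 8.49 in the inhibitory libraries. The excitatory libraries were nearly equal, and the inhibitory ones were lower and 0.91 apart. The difference of 3.42 (SE 0.36, limma adjusted p = 0.00109) was 10.7-fold, and 7.33-fold after scaling, the largest fold among the 4 members higher in the excitatory libraries. It did not pass with excitatory replicate 1 (adjusted p = 0.0746) or 2 (0.0736) left out. Rasa4, a calcium-triggered member also known as CAPRI, was listed at 0 in every library, which is not read as absence.

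In the family of Dab2ip, 2 members were higher in excitatory and 1 in inhibitory libraries. Dab2ip, which binds the reelin adaptor DAB1 and restrains both RAS and survival signalling (chromosome 2, 35558266 to 35730994), had 14.19 and 13.82 in the excitatory and 12.15 and 11.88 in the inhibitory libraries. Its replicates differed by at most 0.4, and the labels by about 2 units. The difference was 1.99 (SE 0.19, limma adjusted p = 7.56e-04), 3.98-fold, or 2.73-fold after scaling. Rasal2, a brake studied mostly as a tumour suppressor (chromosome 1, 157135182 to 157412595), had 12.08 and 11.65 against 10.53 and 10.27, a smaller step of 1.47 (SE 0.23, limma adjusted p = 0.00391) or 2.76-fold, which was 1.90-fold after scaling. Rasal2 was the member whose call was lost most often: without excitatory replicate 1 (adjusted p = 0.0597), inhibitory replicate 1 (0.0727) or inhibitory replicate 2 (0.0886). The log2 ratio of Rasal2 to Dab2ip per kb was -2.83 and -2.89 in the excitatory and -2.34 and -2.32 in the inhibitory libraries, a difference of -0.53 between the labels, small beside the 3.59 by which Rasa2 and Rasa3 shifted. Both Dab2ip and Rasal2 overlap other annotated transcripts at their starts, by 347 exon bases with the noncoding Gm13446 (10.77 and 10.57 against 2.09 and 4.39) and by 244 with the pseudogene 2810025M15Rik (9.08 and 9.37 against 10.71 and 10.69), and the part of these overlaps was not tested.

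Rasal3, which is best known from lymphocytes and other blood cells (chromosome 17, 32390659 to 32403583), was listed at 0 for the excitatory pair, against 7.15 and 6.57 for the inhibitory pair. The inhibitory values came from about 196 and 108 reads. No fold is given against libraries listed at 0. Rasal3 reached the test only through the inhibitory libraries, so it had to differ there, and its p is not given as support. The fitted difference depended on the constant added before the log, at -6.86 with 1, -8.85 with 0.25 and -3.95 with 8. Markers of microglia and leukocytes moved in the same direction: 6 of 10 were higher in the inhibitory libraries and 0 in the excitatory libraries (8 and 0 after scaling). Their summed level (log2) was 16.18 and 15.90 in the inhibitory and 15.05 and 15.20 in the excitatory libraries. Of all tested genes, 26.8% were called as higher in the inhibitory libraries (33.5% after scaling). Ptprc, the pan-leukocyte antigen CD45, went from 0 in the excitatory pair to 12.01 and 11.80. Like Rasal3, Ptprc passed the filter on low values only through the inhibitory libraries, so its call is not given as support. Tmem119 (-5.4), Aif1 (-3.9), Csf1r (-2.6), Cx3cr1 (-2.5) and Itgam (-1.3) were also called higher in the inhibitory libraries. The microglial genes C1qa, C1qb, P2ry12 and Tyrobp did not pass in the deposited values. After scaling C1qb (limma adjusted p = 0.00996) and P2ry12 (0.0425) passed in the same direction. Of 6 lymphocyte markers, 4 were listed at 0 in all 4 libraries, Cd3g, Cd2 and Cd79a among them. Only 1 was tested, and it was higher in the inhibitory libraries (Lck, -4.40, limma adjusted p = 5.96e-04). Their summed level was 9.04 and 8.92 against 4.96 and 4.21. That sum is Lck itself, apart from Cd3e at 0.84 in inhibitory replicate 2. The part of other cell types in the Rasal3 result was not tested. An antisense transcript, CT485616.1, shares 635 bases (13.0%) of the Rasal3 exons, and no kit named in the labels is described there as marking strand.

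Compared per kilobase, the order of the members changed with the label, and part of that order depended on the gene length used. Levels are linear values divided by the length of all annotated exons of the gene, by which Dab2ip led in every library. In the excitatory libraries Dab2ip had 2239 and 1729 normalized reads per kb, followed by Rasal1 (800.2 and 782.1), Rasa1 (548.3 and 508.4), Rasal2 (315.7 and 233.5), Rasa2 (293.8 and 250.7), Rasa3 (41.7 and 22.3) and Nf1 (2.23 and 2.50). Rasal2 and Rasa2 overlapped there, and the other neighbours in this order did not. In the inhibitory libraries the order was Dab2ip (543.5 and 449.5), Rasa3 (300.4 and 247.1), Rasa2 (202.3 and 197.5), Rasal2 (107.2 and 90.0), Rasa1 (83.1 and 106.8), Rasal1 (53.8 and 101.4), Nf1 (51.7 and 86.7) and Rasal3 (28.8 and 19.2). Among Rasal2, Rasa1, Rasal1 and Nf1, every pair of neighbours in that order overlapped, so neighbours among these 4 do not differ beyond their spread. Rasal2 and Nf1, the first and last of them, did not overlap, and neither did Nf1 and Rasal3. Of the 21 pairs among the 7 members above 0 in all libraries, 7 changed places per kb between the labels with both libraries of each label on the same side. With the median length of coding transcripts 6 pairs did so, 4 of them among the 7, and with no division by length 5 did so, 3 of them among the 7. Those that changed places under all 3 were Rasa3 with Rasa1 and Rasa3 with Rasal1. With coding transcript lengths Rasal2 had 877.6 and 736.3 per kb in the inhibitory libraries against 751.4 and 621.4 for Dab2ip, so Rasal2 led there, and Dab2ip led in the excitatory libraries with 3095 and 2390 against 2583 and 1911. Among all detected genes, Nf1 stood at percentiles 12.3 and 12.7 per kb in the excitatory and 34.2 and 40.3 in the inhibitory libraries, and Dab2ip at 85.3 and 82.8 against 71.1 and 68.1.

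As shares of the family's summed level per kb, Dab2ip made up 50.9% ± 2.7 (SD, n = 2) in excitatory and 37.1% ± 3.6 in inhibitory libraries. Rasal1 and Rasa1 followed in the excitatory libraries, with 20.5% ± 2.3 and 13.7% ± 1.0, and had 5.87% ± 2.7 and 7.14% ± 1.5 in the inhibitory libraries. There Rasa3 (20.5% ± 2.0) and Rasa2 (15.0% ± 0.32) came next after Dab2ip, from 0.807% ± 0.25 and 7.02% ± 0.13 in the excitatory libraries. The shares of Rasal2 overlapped between the labels, at 7.03% ± 0.58 and 7.38% ± 0.63. Nf1 was 0.0617% ± 0.013 and 5.22% ± 2.1. Division by the median length of coding transcripts, in place of all exons, gave Dab2ip 35.0% and 24.1% and raised Rasal2 to 28.6% and 28.3%.

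**Figure D3:**
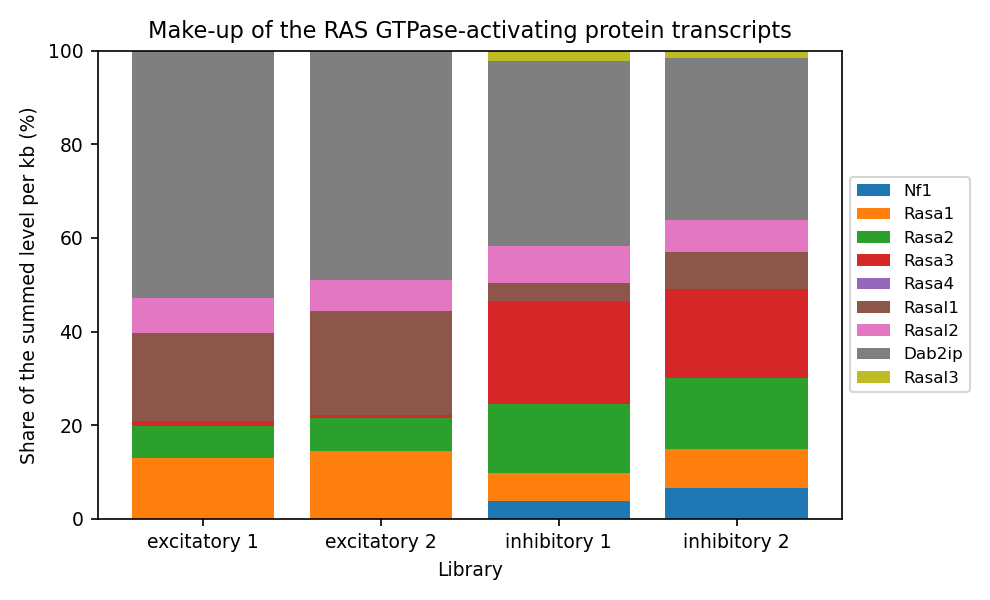
Share of each member in the summed level per kb of the 9 genes (vertical axis, %) in each library, by the length of all exons. By this length Dab2ip fills the largest part of every bar, Rasal1 and Rasa1 fill most of the rest in the excitatory libraries, and Rasa3 and Rasa2 in the inhibitory libraries.

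The family was then set against the exchange factors that act in the opposite sense, a comparison chosen after the values were seen. The 9 GTPase-activating protein genes summed to 4240 and 3528 normalized reads per kb in excitatory and 1371 and 1298 in inhibitory libraries. The 8 exchange factor genes (Sos1, Sos2, Rasgrf1, Rasgrf2 and Rasgrp1 to Rasgrp4) summed to 2670 and 2336 against 2448 and 2450. Within a library the ratio of the first sum to the second was 1.59 and 1.51 in the excitatory and 0.560 and 0.530 in the inhibitory libraries. Both excitatory libraries lay above 1 and both inhibitory libraries below it (exact permutation p = 0.333, the smallest that 2 against 2 allows). With Dab2ip left out the ratios were 0.7497 and 0.7702 against 0.338 and 0.346, so the order of the labels was the same while no library exceeded 1. With median coding transcript lengths they were 1.06 and 0.999 against 0.422 and 0.411. The make-up of the exchange factors differed too: Rasgrf1, which responds to calcium and calmodulin, was 44.8% and 46.3% of their sum in the excitatory and 14.1% and 13.4% in the inhibitory libraries, and Rasgrp3, which responds to diacylglycerol, 0.0769% and 0.119% against 17.5% and 25.5%. Rasgrp1, of the same family, led in the inhibitory libraries with 34.6% and 30.4%, against 16.5% and 21.2%.

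**Figure D4:**
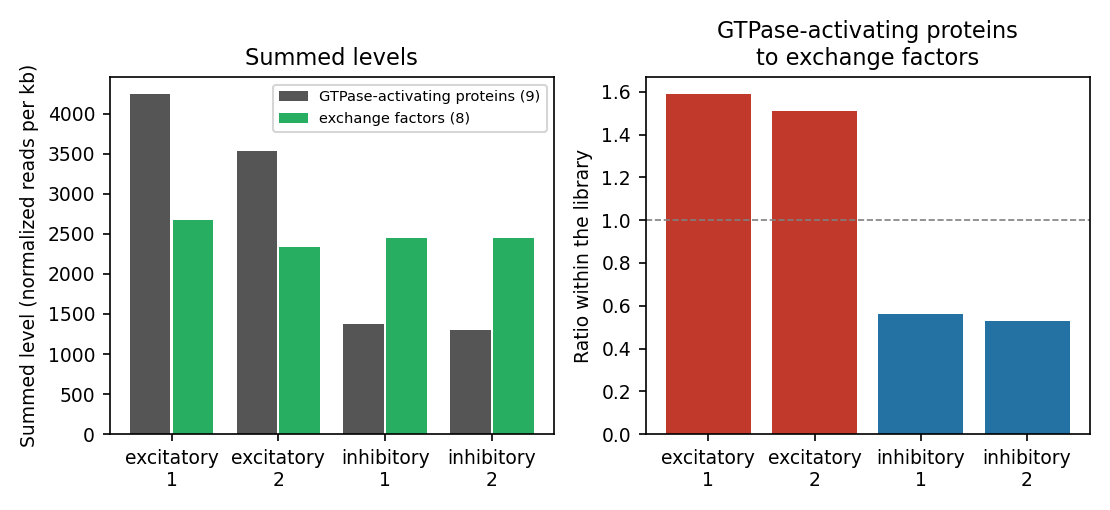
Left, summed level (normalized reads per kb) of the 9 GTPase-activating protein genes and the 8 exchange factor genes in each library; right, the ratio of the 2 sums, with a dashed line at 1. The ratio is 1.59 and 1.51 in the excitatory and 0.560 and 0.530 in the inhibitory libraries.

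Calls were made for 71.8% of all tested genes, 45.0% toward excitatory and 26.8% toward inhibitory libraries. Beside that background, genes that act with the GTPase-activating proteins were split between the labels too, which is not particular to them. Of 8 RAS GTPases, their substrates or relatives of these, 5 were higher in excitatory and 2 in inhibitory libraries (3 and 2 after scaling), with a median difference of 0.85 against 0.52 for all tested genes. Whichever 1 library was left out, 4 and 1 were called. The smallest p-values were those of Rit2, a RAS relative of neurons, at 5.67 (SE 0.34, limma adjusted p = 2.07e-04), Rit1 at 1.95 (SE 0.11, adjusted p = 1.70e-04) and Hras at 0.87 (SE 0.087, adjusted p = 9.36e-04).

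Of 8 exchange factors 2 were higher in excitatory and 3 in inhibitory libraries (1 and 3 after scaling; median 0.21). Leaving out 1 library gave 1 and 1, or 2 and 1 where it was excitatory replicate 2. Rasgrp3 differed by -7.66 (SE 0.34, limma adjusted p = 1.09e-04) and Rasgrf1 by 1.76 (SE 0.12, adjusted p = 3.30e-04). Rasgrp1 differed by -0.77 (adjusted p = 0.0110), a call lost whichever 1 library was left out (0.0583 to 0.0862). Of 7 RAF, MEK and ERK kinases 3 and 2 were called in both scalings (median 0.16), 2 and 2 without either excitatory replicate, 3 and 0 without inhibitory replicate 1 and 3 and 1 without inhibitory replicate 2. Among them were Araf at 1.56 and Mapk3, which encodes ERK1, at 1.40. The RAF kinase gene Braf, at 4.90 and 3.63 against 9.89 and 9.88, had the pattern nearest to Nf1 among the 39 tested genes of these lists (Euclidean distance 1.84 over 4 libraries). Its call did not hold with inhibitory replicate 1 (limma adjusted p = 0.0580) or 2 (0.0573) left out.

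Among 12 genes listed as recruiting or binding the GTPase-activating proteins, or related to such genes, 6 of 8 tested were higher in excitatory and 1 in inhibitory libraries (4 and 1 after scaling; median 1.48). Leaving out 1 library gave 3 and 1 (either excitatory replicate), 4 and 0 (inhibitory replicate 1) and 4 and 1 (inhibitory replicate 2). The DOK adaptors that are known to bind p120 RasGAP are the first 3, and Dok1 had 0 and 2.25 against 0 in both, while Dok2 and Dok3 were listed at 0 in all 4 libraries. The related Dok5 (11.65 and 11.82 against 4.33 and 5.05) and Dok6 (8.49 and 8.52 against 0 in both), from the subgroup that lacks the RasGAP-binding motifs, were higher in the excitatory libraries. Dok6 passed the filter on low values only through those libraries. Arhgap35, a partner of p120 RasGAP, was higher there by 1.11 (SE 0.21, limma adjusted p = 0.00780) but did not pass after scaling (0.57, adjusted p = 0.0602), nor without excitatory replicate 1 (0.0885), excitatory replicate 2 (0.106) or inhibitory replicate 1 (0.0585). SPRED proteins carry neurofibromin to the membrane, and their 3 genes went different ways. Spred1 had 11.05 and 10.90 against 10.51 and 10.40, a difference of 0.52 at the edge of the threshold (limma adjusted p = 0.0497) that was -0.02 after scaling (0.917) and did not pass when any single library was left out (0.0751 to 0.121) or with the replicate block (0.0858). Spred2 had 1.40 and 0 against 7.77 and 7.50 (-6.93), the direction of Nf1, and did not pass without inhibitory replicate 1. Spred3 had 5.41 and 5.00 against 0.47 and 0 (4.97). Spred2 needed the inhibitory and Spred3 the excitatory libraries to pass the filter on low values, so their p-values are not given as support.

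Among 6 GTPase-activating proteins for RAP, a close relative of RAS, 2 were higher in excitatory and 1 in inhibitory libraries in both scalings, and 1 and 1 without either excitatory replicate. Sipa1l2 had 1.40 and 0.35 against 8.92 and 8.90. It needed the inhibitory libraries to pass the filter on low values, so its p is not given as support. Sipa1l1 (1.18) and Rap1gap (2.50) were higher in the excitatory libraries. The limma adjusted p of Rap1gap was 0.00240, and its call was lost when any 1 library was left out. Of 2 tested IQGAP genes, whose GAP-related domain does not switch RAS off, both were higher in the excitatory libraries. Iqgap1 differed by 5.04 and needed the excitatory libraries to pass the filter. Iqgap2 differed by 1.73, and its call was lost without inhibitory replicate 1 or inhibitory replicate 2. Of all tested genes, 45.0% were called as higher in the excitatory and 26.8% as higher in the inhibitory libraries (32.4% and 33.5% after scaling). Beside these shares, 20 of the 39 tested genes of these 6 lists were higher in excitatory and 9 in inhibitory libraries (15 and 9 after scaling). These counts were 13 and 6 with excitatory replicate 1 left out and 14 and 6 with excitatory replicate 2 left out. They were 15 and 3 with inhibitory replicate 1 left out and 15 and 5 with inhibitory replicate 2 left out.

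**Figure D5:**
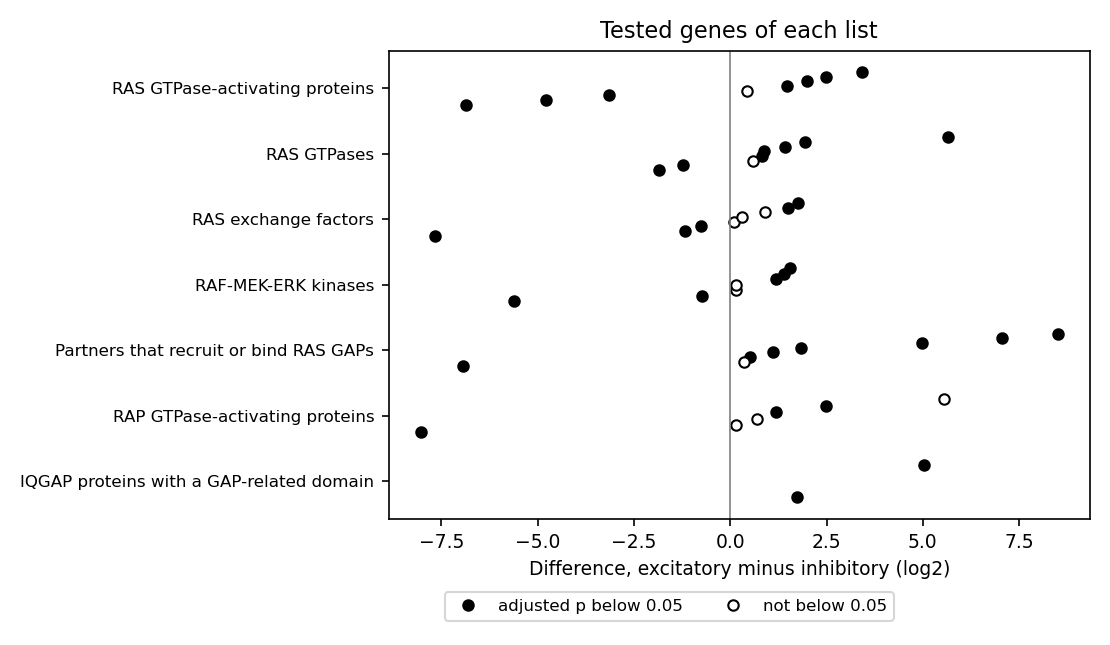
Difference between the labels (log2, horizontal axis) of each tested gene, by list; filled points have a limma adjusted p below 0.05 and open points do not. Every list of 6 or more tested genes has filled points on both sides of 0.

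The genes nearest in pattern to each member, by Euclidean distance over the 4 deposited values, were searched among 12041 tested genes that GENCODE names and that are not predicted genes, RIKEN clones or pseudogenes. They were Irf2bp1 for Nf1 (distance 0.45), Strap for Rasa1 (0.28), Rab1b for Rasa2 (0.091), Dock1 for Rasa3 (0.20), S1pr5 for Rasal1 (0.35), Camkk2 for Rasal2 (0.23), Cntnap5b for Rasal3 (0.039) and Aup1 for Dab2ip (0.070). Nf1 had the most distant nearest gene of the 8, and Rasal3, with 2 values at 0, the closest. None of these nearest genes was itself a member.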

How the data were processed

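RNA of 4 libraries, each from 100 picked cells, was amplified with SMART-seq v4 and made into libraries with Nextera XT, per the labels' protocols. The submitters' processing notes name TopHat, edgeR and build mm10 without roles; the counting of reads was not stated in the labels used here. The authors deposited 1 log2 value per gene and library. That the values are log2 of normalized reads plus 1 was read from the low values, which fall into bands spaced by 1.30, 1.23, 0.720 and 0.873 normalized reads (excitatory 1 and 2, inhibitory 1 and 2); dividing by the spacing gave the estimated reads. The lowest bands lay at 0.315, 0.248, 0.391 and 0.727 rather than at 1 spacing, so estimates of few reads are rough, and no counting interval was computed.

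The design allowed for raw counts; since the tables hold log2 values, no count model was run. In R 4.3.3, limma 3.58.1 with a mean-variance trend was fitted to the 13619 genes that reached a value of 1 in 2 or more libraries. Adjustment was by Benjamini-Hochberg over all of them, with a threshold of 0.05. Exon lengths and positions came from GENCODE release M21 (same build; 95.7% of symbols matched), upstream sequences from RefSeq. The labels number replicates 1 and 2 in each group but do not pair them; deviations of same-numbered libraries correlated at -0.00193 across genes. Named genes were the 9 members, the nearest gene of each, and from each list up to 3 genes past the threshold with the smallest p; Spred1, Spred2, Arhgap35 and the genes that overlap a member were added after their values were seen. The members, lists and rules were chosen with earlier results of these data known. Some genes and 1 list are not reported here. Alternatives covered scaling, filter, added constant, variance model, replicate block, transcript length and leaving out each library.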

Additional observations from a re-analysis of the deposited data

How the results depend on the processing

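Nf1, Rasa1 and Dab2ip (and Rasal3, which the filter made differ) kept their direction and stayed past the threshold under all 13 alternatives. Rasa3 and Rasal1 did so under 11 of 13 and Rasal2 under 10, and the calls they lost were those with 1 library left out. Rasa2 turned to -0.10 with median-of-ratios and -0.082 with upper-quartile scaling; with the filter at 3 (adjusted p = 0.0492), robust empirical Bayes (0.0478) or without excitatory replicate 2 (0.0485) it passed. Leaving out 1 library gave 6103 to 6551 called genes in all, 2 to 4 members higher in excitatory and 2 to 3 in inhibitory libraries, and 13 to 15 and 3 to 6 pathway genes; fewer libraries leave less residual information. With the replicate block 4 and 3 members and 9782 genes were called, and no call on a member changed. The share of Dab2ip with median coding lengths was 35.0% (excitatory) and 24.1% (inhibitory). The mean ratio of GTPase-activating proteins to exchange factors, 1.55 and 0.545, was 1.03 and 0.416 with those lengths, 1.43 and 0.709 without division by length, and 0.760 and 0.342 without Dab2ip; this ratio and its alternatives were chosen after the values were seen, as were the counts over genes above 0 in every library, the levels of all members by other lengths and the marker sum without Mbp. DESeq2 was not run because the tables hold no counts. With 2 libraries per label no exact test can go below p = 0.333, and the low values of Nf1 in the excitatory libraries rest on about 27 and 32 reads.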
